A study of Mus musculus with 20 samples.

Results

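The carbonic anhydrases Car2, Car4 and Car14 were followed in mouse kidney through all probe sets that the platform annotation assigned to one of these genes alone. The rule gave 4 probe sets out of 12422: 92642_at for Car2, 103046_at and 161818_f_at for Car4, and 98079_at for Car14. A probe set is a group of short oligonucleotide probes on the array that together report 1 transcript. All 4 of the 4 passed the filter on dim signal, a mean intensity of 79.4 that 8695 probe sets passed.

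Carbonic anhydrases convert carbon dioxide and water into bicarbonate and a proton, and back again. In the kidney tubule this reaction lets the proximal tubule reclaim filtered bicarbonate and lets intercalated cells of the collecting duct secrete acid. Car2 is the cytosolic enzyme of tubule cells and is also abundant in red blood cells. Car4 is tethered to the outer face of the membrane by a lipid anchor and is present in tubule and capillary membranes. Car14 spans the membrane and faces outward, and in the mouse kidney it is known from the proximal tubule and the descending thin limb.

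The series compared the renal response to dietary phosphate restriction in Hyp and in normal mice, both C57BL/6J. Hyp mice carry a Phex mutation and model X-linked hypophosphatemia, in which the kidney wastes phosphate. Hyp mice received either a low phosphate or a control diet, as did normal mice, with 5 arrays in each of the 4 groups. Each array held kidney RNA pooled from 3 mice, fed for 5 days on 12 arrays and for 3 days on 8, and female on 8 arrays and male on 12. The ages and the phosphate content of the diets are not given in the sources used here. The labels do not say whether pools shared cages or litters, so the p-values rest on differences among pools and not among single mice.

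The deposited signal intensities were linear, and the authors had brought every array to 1 common level. The trimmed mean ran from 500.254 to 500.309 over the 20 arrays, and the number of arrays limits the precision. The probe set for Phex was dim in both genotypes, at 11.5 to 106.3 on Hyp arrays and 19.1 to 88.8 on normal arrays, so it did not check the genotype labels. The title numbers run in 6 blocks of arrays that each share sex and days. Arrays 05 to 08, the females at 5 days with 1 array per group, stood apart. Their median Spearman correlations with the other arrays were 0.895 to 0.934, against 0.943 to 0.969 for the remaining 16 arrays. Their ratios of the 3′ to the 5′ actin control, a sign of RNA integrity, were 1.74 to 2.61, against 1.22 to 1.98.

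The sequences around the starts of both membrane-bound genes are shown because Car14 carried the difference between genotypes and Car4 the largest difference between diets, averaged over genotypes, among the 4 probe sets. RefSeq, on build GRCm38.p6, held the window of 250 bases before and 50 bases after the start for Car4 and Car14, 2 of the 3 genes. The Car4 window is chr11:84957504-84957803 on the plus strand, and the Car14 window is chr3:95904636-95904935 on the minus strand. Capitals mark the TATAAA found in the Car4 window, whose first base is base 43 after the annotated start. The match thus lies past the start, and whether it acts in the promoter was not tested.
Car4: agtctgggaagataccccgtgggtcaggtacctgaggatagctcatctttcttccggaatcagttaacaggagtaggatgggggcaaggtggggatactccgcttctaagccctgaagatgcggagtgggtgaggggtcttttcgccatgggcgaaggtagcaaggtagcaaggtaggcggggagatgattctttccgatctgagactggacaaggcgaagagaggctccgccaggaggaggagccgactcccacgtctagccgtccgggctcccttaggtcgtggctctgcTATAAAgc
Car14: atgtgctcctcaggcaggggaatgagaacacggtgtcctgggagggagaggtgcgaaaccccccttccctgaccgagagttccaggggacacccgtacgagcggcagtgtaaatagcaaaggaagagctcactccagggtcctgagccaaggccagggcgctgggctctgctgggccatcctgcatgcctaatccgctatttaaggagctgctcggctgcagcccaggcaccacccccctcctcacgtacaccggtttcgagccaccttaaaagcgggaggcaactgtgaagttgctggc

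Both windows were searched on both strands for the letters TATAAA of the core promoter box, for GGGCGG of the GC box, for GTTAAT, a part of the site of the tubule factor HNF1, and for CACGTG of the E box. The single match of TATAAA in Car4 overlapped no other match, and the Car14 window held 0 of these motifs. Among 32851 windows of the same length, 13.6% held TATAAA, 35.7% GGGCGG, 7.1% GTTAAT and 7.15% CACGTG. The windows were 57.3% G or C for Car4 and 61% for Car14.

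Car14 was lower in Hyp kidneys than in normal kidneys on both diets. On Hyp arrays its mean intensity was 1311 ± 235, against 2061 ± 218 on normal arrays (SD, n = 10 each), a difference of -36.4%. Car2 and Car4 did not pass the test in any comparison of genotypes or diets. Each probe set was tested by itself, and differences between the genes were not tested.

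Listed by title number, Car14 read 1638.2, 1431.8, 1447.0, 1435.7 and 1149.7 in Hyp kidneys on low phosphate diet. In Hyp kidneys on control diet it read 1561.5, 1002.3, 927.8, 1220.2 and 1300.0. Every one of these 10 values lay below every value from normal mice. Car14 read 2353.8, 1997.1, 2288.3, 2106.9 and 2333.3 in normal kidneys on low phosphate diet. In normal kidneys on control diet it read 1879.6, 1893.8, 1886.6, 2145.8 and 1729.7. The highest Hyp array, at 1638.2, and the lowest normal array, at 1729.7, left a narrow gap between the genotypes. Of the 8695 probe sets tested, 2 lay wholly lower in Hyp mice in this way (0.0230%), Car14 and Dnase1, which encodes a secreted nuclease, and 1 lay wholly higher (0.0115%), Ttr, which encodes the thyroid hormone carrier transthyretin. Dnase1 and Ttr were named after their values had been seen.

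**Figure D1:**
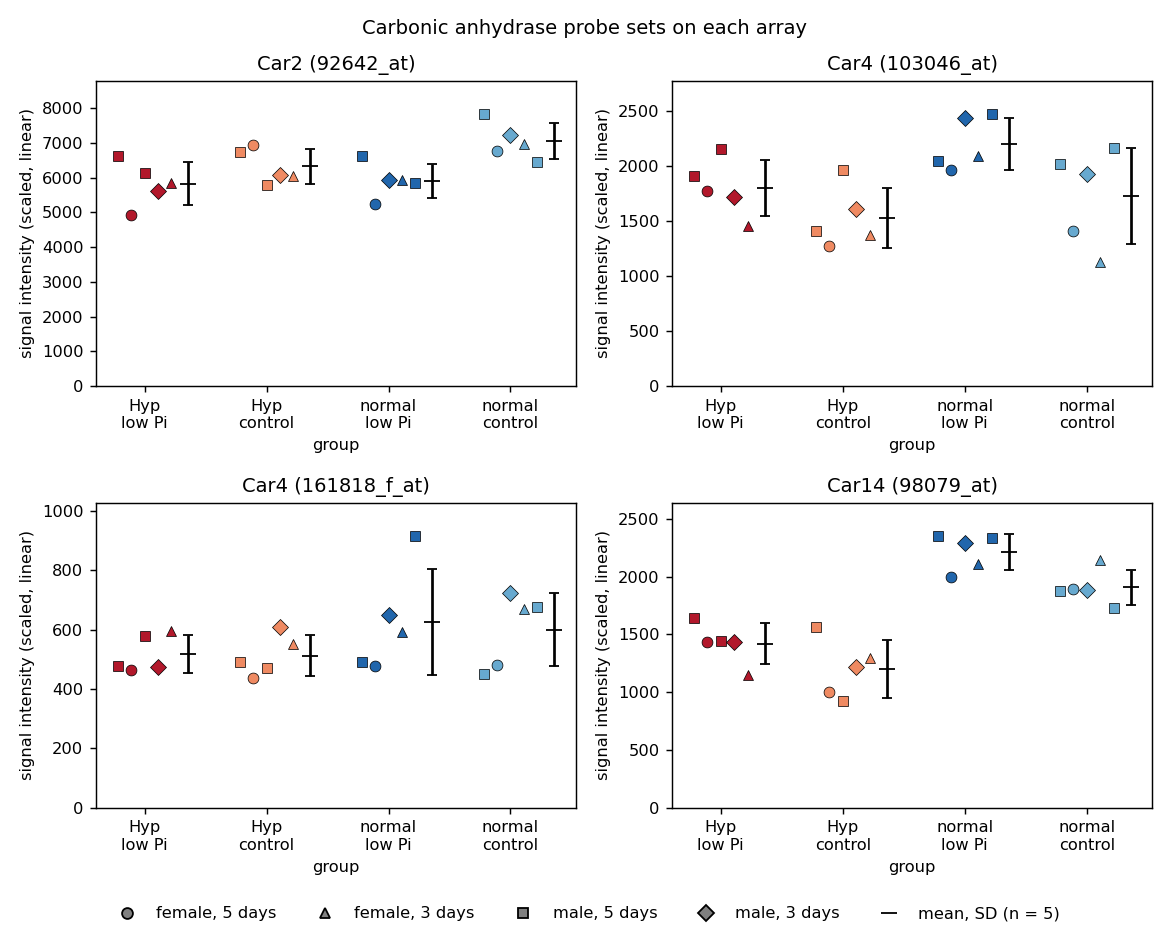
Signal intensity (linear, scaled by the authors) of each carbonic anhydrase probe set on each of the 20 arrays, by group; low Pi is the low phosphate diet. Marker shapes give sex and days, and the bars to the right of each group give its mean and SD (n = 5). The 10 Hyp values of Car14 lie at or below 1638.2 and the 10 normal values at or above 1729.7, whereas for Car2 and Car4 the Hyp and normal values overlap.

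Averaged over the diets, the log2 difference of Car14, Hyp minus normal, was -0.65 (SE 0.092, 95% interval -0.85 to -0.46, adjusted p = 0.00079, limma with Benjamini-Hochberg adjustment over 8695 probe sets). It ranked 20 by p-value. In this comparison 1 of the 4 carbonic anhydrase probe sets passed the threshold, against 1.28% of all probe sets tested (0.506% in the lower direction). The median log2 difference of the 4 probe sets was -0.22, against 0.02 over all probe sets tested.

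On each diet taken alone the Car14 difference was of similar size. On the low phosphate diet it averaged 1420.5 ± 174 in Hyp kidneys and 2216 ± 156 in normal kidneys (SD, n = 5 each), a log2 difference of -0.63 (SE 0.13, adjusted p = 0.041). In that comparison 0.357% of probe sets were called, and in 0.311% all Hyp arrays lay below all normal arrays. On the control diet Car14 averaged 1202 ± 252 in Hyp kidneys and 1907 ± 149.8 in normal kidneys, a log2 difference of -0.67 (SE 0.13, adjusted p = 0.033). The share called there was 0.253%, and in 0.253% all Hyp arrays lay below all normal arrays. The genotype by diet term, which asks whether the genotypes differed in their response to diet, was 0.04 for Car14 (95% interval -0.35 to 0.42, adjusted p = 1), in a comparison with 0.0460% of probe sets called.

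The calls on each single diet lay near the threshold, and the averaged call did not. Over all 20 omissions of 1 array, the averaged Car14 difference stayed between -0.70 and -0.60 with an adjusted p of 0.00051 to 0.003. Without arrays 05 to 08 the averaged difference was -0.64 (adjusted p = 0.01). On the low phosphate diet the call held only when array 03, 07, 09, 15 or 19 was left out, and the other 15 omissions ended it (log2 difference -0.68 to -0.54 and adjusted p 0.017 to 0.14 over all 20). On the control diet it held only when array 03, 04, 06, 08, 10, 18 or 20 was left out, and the other 13 omissions ended it (-0.77 to -0.57, adjusted p 0.025 to 0.17).

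Within the blocks of arrays that held both genotypes, Car14 was lower on the Hyp array of every pair. On the low phosphate diet the log2 differences of single pairs ran from -0.85 to -0.47 over 4 blocks. The pair at -0.85 came from females at 3 days and the pair at -0.47 from females at 5 days. On the control diet they ran from -0.89, in females at 5 days, to -0.26, in males at 5 days. With the block as a fixed term the averaged difference was -0.62 (adjusted p = 0.0025).

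**Figure D2:**
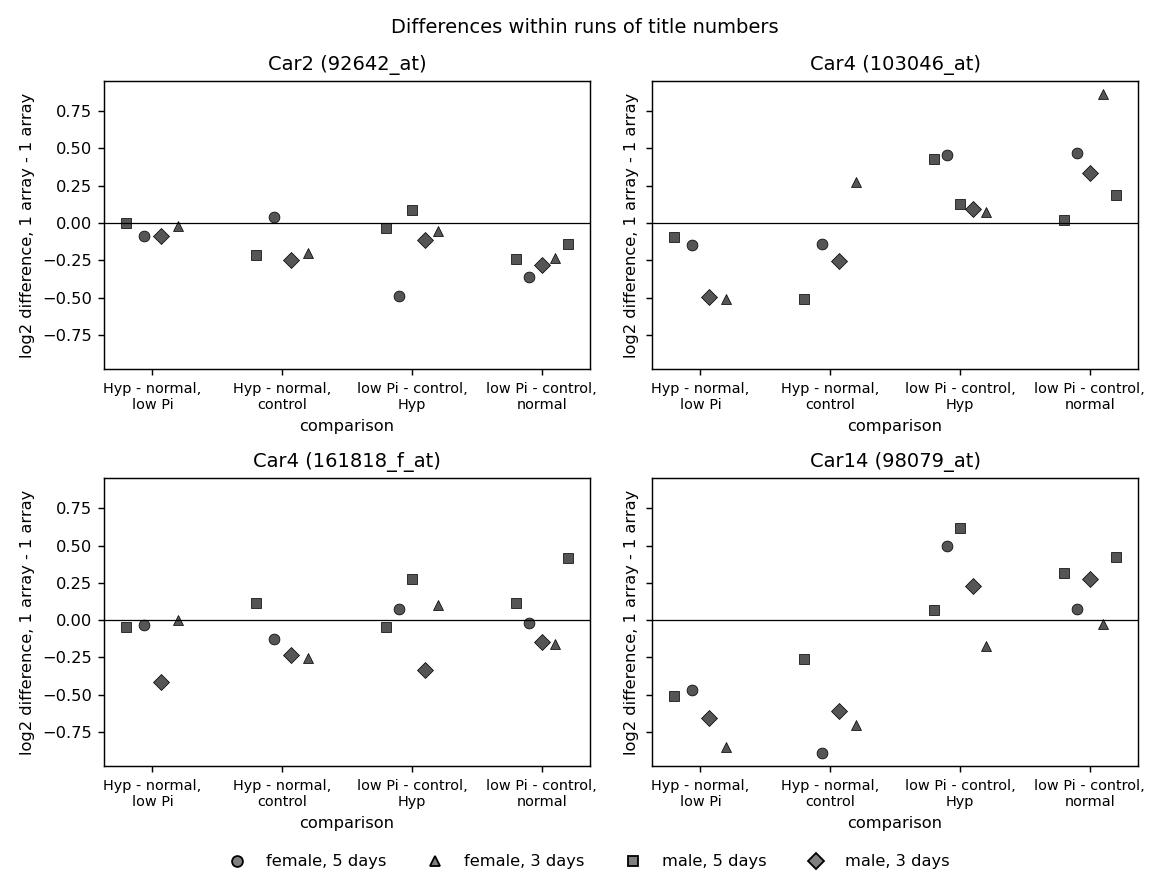
Log2 difference between single arrays of the same block of title numbers, for each probe set and comparison; each marker is 1 array minus 1 array, and shapes give sex and days. Car14 lies below 0 in all 8 pairs of Hyp and normal arrays, and Car4 103046_at lies above 0 in all 10 pairs of diets.

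Markers of the proximal tubule, the segment in which Car14 is known, were compared beside it. In whole kidney RNA, fewer cells of a type and less RNA per cell cannot be told apart. Of 8 listed markers 6 were measured, and all 6 had a negative log2 difference in Hyp mice averaged over diets, with a median of -0.22, against 0.02 over all probe sets tested. Slc4a4 alone was called (1 lower, 0 higher), against 0.506% lower and 0.771% higher among all probe sets tested. The 6 differences were -0.41 for Slc4a4, -0.33 for Slc34a1, -0.31 for Aqp1, -0.13 for Slc22a6, -0.11 for Cubn and -0.05 for Lrp2. On low phosphate diet 6 of 6 differences were negative and on control diet 5 of 6, with 0 called on either. The lowest value of any of the 6 was 1039.0. The sum of their intensities was 26405 to 35431 in Hyp kidneys on low phosphate diet, against 34652 to 45631 in normal kidneys on that diet. On control diet the sum was 31234 to 34420.4 in Hyp kidneys and 34632 to 38852 in normal kidneys. Slc34a1, the brightest of the 6, weighs most in these sums. It averaged 11879 in Hyp kidneys and 15561 in normal kidneys on low phosphate diet, and 11497 and 13814 on control diet. The part of these markers in the Car14 difference was not tested.

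On low phosphate diet Car14 was somewhat higher than on control diet in both genotypes, without passing the test. The log2 difference, low phosphate minus control, was 0.25 in Hyp mice (95% interval -0.03 to 0.52, adjusted p = 1) and 0.21 in normal mice (-0.06 to 0.49, adjusted p = 0.71). The diet groups overlapped in each genotype. Counted from the highest group mean of Car14, Hyp kidneys ranked 3 on low phosphate diet and 4 on control diet, and normal kidneys ranked 1 on low phosphate diet and 2 on control diet. The single step in this order whose arrays did not overlap was that between ranks 3 and 2, where the genotype changes.

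Car4 was measured by 2 probe sets, and the first one, 103046_at, read higher on the low phosphate diet without passing the test. It read 1911.6, 1771.1, 2152.6, 1718.0 and 1453.1 in Hyp kidneys on low phosphate diet, against 1409.5, 1277.7, 1968.1, 1610.9 and 1377.5 in Hyp kidneys on control diet. These groups overlapped, since array 09 on control diet lay above 4 of the 5 arrays on low phosphate diet. In normal kidneys it read 2044.1, 1968.6, 2438.3, 2089.4 and 2478.1 on low phosphate diet, against 2018.4, 1409.9, 1925.9, 1130.3 and 2166.7 on control diet. Here the lowest array on low phosphate diet exceeded 3 of the 5 on control diet, and the control group had the wider spread.

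The group means of Car4 103046_at were 1801 ± 257 on low phosphate diet and 1529 ± 274 on control diet in Hyp kidneys (SD, n = 5 each). In normal kidneys they were 2204 ± 237 on low phosphate diet and 1730.2 ± 440.0 on control diet. The log2 difference, low phosphate minus control, was 0.24 in Hyp mice (95% interval -0.03 to 0.50, adjusted p = 1) and 0.38 in normal mice (0.11 to 0.64, unadjusted p = 0.008, adjusted p = 0.33). Of the 4 probe sets 0 were called in either genotype, where 0.150% of all probe sets were called in Hyp mice and 0.184% in normal mice. Over both genotypes the difference was 0.31 (SE 0.088, 95% interval 0.12 to 0.49, unadjusted p = 0.003, adjusted p = 0.18), with 0.472% of probe sets called. At an unadjusted p under 0.05, 3 of the 4 carbonic anhydrase probe sets passed in that comparison, against 9.75% of all tested. They did not share a direction, since Car4 103046_at and Car14 (0.23) were higher on low phosphate diet and Car2 was lower (-0.19). The other Car4 probe set, 161818_f_at, did not pass (0.03).

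Pair by pair, Car4 103046_at was higher on low phosphate diet in every block that held both diets. The log2 differences were 0.08 to 0.46 in 5 blocks of Hyp arrays and 0.02 to 0.86 in 5 blocks of normal arrays. The lowest normal pair came from males at 5 days and the highest from females at 3 days.

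The second Car4 probe set, 161818_f_at, did not follow the first. Its suffix marks probes that also match similar sequences, so its signal may include other transcripts. It read 476.0, 463.8, 578.6, 475.8 and 594.8 in Hyp kidneys on low phosphate diet, against 492.4, 438.0, 470.8, 608.7 and 552.5 in Hyp kidneys on control diet. In normal kidneys it read 491.8, 476.5, 648.8, 593.4 and 916.5 on low phosphate diet, against 451.4, 482.6, 723.6, 668.0 and 676.1 on control diet. The diet groups overlapped almost fully in both genotypes, and array 20, at 916.5, was the highest of all. The log2 difference of diet was 0.02 in Hyp mice (95% interval -0.30 to 0.33) and 0.04 in normal mice (-0.28 to 0.36). Across the 20 arrays, after the means of sex and days were removed, both Car4 probe sets correlated with r = 0.36, a description of arrays that share groups and scaling.

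Between genotypes Car4 was lower in Hyp mice by both probe sets without passing the test. Averaged over diets, 103046_at was at 1665 ± 289 in Hyp kidneys and 1967 ± 416 in normal kidneys (SD, n = 10 each), a log2 difference of -0.22 (95% interval -0.41 to -0.03, adjusted p = 0.26). For 161818_f_at the means were 515 ± 62.1 in Hyp kidneys and 613 ± 145 in normal kidneys, a difference of -0.21 (-0.44 to 0.01, adjusted p = 0.36). It was -0.13 without array 20 (adjusted p = 0.52) and also -0.13 with the block as a fixed term (adjusted p = 0.63). Counted from the highest group mean of 103046_at, Hyp kidneys ranked 2 on low phosphate diet and 4 on control diet, and normal kidneys ranked 1 on low phosphate diet and 3 on control diet. Arrays of each neighbouring pair in that order overlapped. For 161818_f_at the group means were 518 ± 63.4 on low phosphate diet and 512 ± 68.1 on control diet in Hyp kidneys, and 625 ± 178 on low phosphate diet and 600.3 ± 124 on control diet in normal kidneys, and all groups overlapped.

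Endothelial cells also carry Car4, and their markers were compared beside it. All 8 listed endothelial markers were measured and 7 tested, of which 0 were called in the averaged diet and genotype comparisons at the adjusted threshold. At an unadjusted p under 0.05, 0 passed for diet and 1 for genotype, against 9.75% and 15.0% of all probe sets tested. The summed intensity was 4754 to 7018 in Hyp kidneys on low phosphate diet and 5048 to 6919 in Hyp kidneys on control diet. It was 4471 to 5865 in normal kidneys on low phosphate diet and 5047 to 7127 in normal kidneys on control diet. These ranges overlapped in every pair of groups, and their part in the Car4 values was not tested.

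Car2 stood at percentile 98.56 of mean intensity among the 12422 probe sets, and its coefficient of variation over the 20 arrays was 11.1%, against 21.0% to 26.3% for the other 3 probe sets. In Hyp kidneys it read 6615.8, 4936.4, 6152.7, 5611.3 and 5856.0 on low phosphate diet, against 6757.3, 6956.9, 5785.7, 6088.4 and 6065.7 on control diet. These groups overlapped. In normal kidneys it read 6621.5, 5241.8, 5951.3, 5933.3 and 5856.1 on low phosphate diet, against 7849.2, 6761.5, 7244.6, 6981.8 and 6468.2 on control diet. Only array 02 on low phosphate diet, at 6621.5, exceeded any control array, namely array 19 at 6468.2.

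The means of Car2 were 5834 ± 626 on low phosphate diet and 6331 ± 500 on control diet in Hyp kidneys (SD, n = 5 each). In normal kidneys they were 5921 ± 489 on low phosphate diet and 7061 ± 525 on control diet. The log2 difference, low phosphate minus control, was -0.12 in Hyp mice (95% interval -0.33 to 0.09, adjusted p = 1) and -0.25 in normal mice (-0.46 to -0.05, unadjusted p = 0.019, adjusted p = 0.44). In Hyp mice the difference was -0.047 without array 07, -0.070 without array 08 and -0.027 without arrays 05 to 08. In single pairs it was negative in 4 of 5 blocks of Hyp arrays (-0.49 to 0.09) and in 5 of 5 blocks of normal arrays (-0.36 to -0.14). This direction was opposite to that of Car4 103046_at, and the correlation of Car2 with Car4 103046_at over the 20 arrays was r = -0.23, or -0.49 after the means of sex and days were removed, a description of arrays that share groups and scaling.

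Car2 was close in both genotypes on the low phosphate diet, with a log2 difference of -0.02 (95% interval -0.23 to 0.18, adjusted p = 0.96). On control diet the difference, Hyp minus normal, was -0.16 (-0.36 to 0.05, adjusted p = 0.67). Counted from the highest group mean, Hyp kidneys ranked 4 on low phosphate diet and 2 on control diet, and normal kidneys ranked 3 on low phosphate diet and 1 on control diet. The arrays of each neighbouring pair in that order overlapped. Red blood cells contain Car2, and 4 of their 7 listed markers were measured and 3 tested. Averaged over diets all 3 were higher in Hyp mice, Hba-a1 by 0.28, Alas2 by 0.45 and Slc4a1 by 0.35. Car2 differed by -0.09 there. Slc4a1 alone was called, where 0.771% of all probe sets tested were called higher. The diet differences averaged over genotypes were -0.11, -0.06 and -0.18 for these 3, with 0 called, and -0.19 for Car2. The summed intensity of the 4 was 10466 to 12703 in Hyp kidneys on low phosphate diet. On control diet it was 6825 to 15258 in Hyp kidneys. It was 6911 to 10423 in normal kidneys on low phosphate diet and 8701 to 11936 in normal kidneys on control diet. The part of red blood cells in the Car2 values was not tested. Of 7 listed intercalated cell markers only Slc4a1, itself also a red cell gene, was measured.

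**Figure D3:**
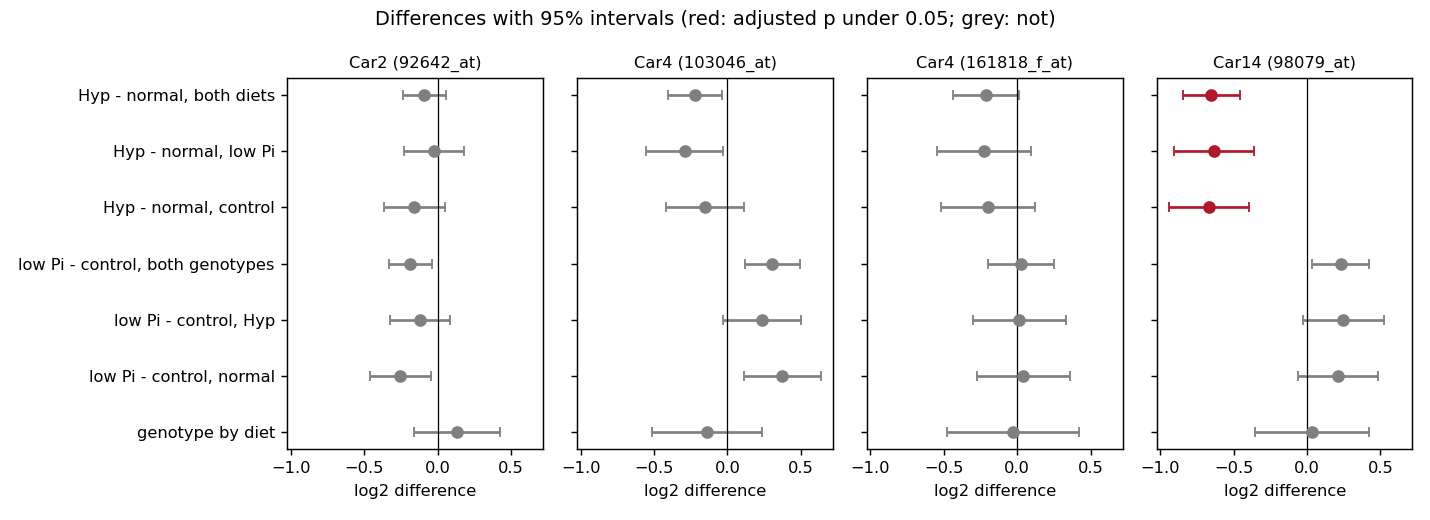
Log2 difference of each carbonic anhydrase probe set in the genotype and diet comparisons, with 95% intervals from the limma fit; low Pi is the low phosphate diet, and red marks an adjusted p under 0.05. The 3 differences called are those of Car14 between Hyp and normal mice, at -0.65, -0.63 and -0.67, and the diet intervals of Car4 103046_at and Car2 lie on opposite sides of 0 in normal mice and averaged over genotypes, but both cross 0 in Hyp mice.

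The time on diet was examined by comparing 5 days with 3 days. Averaged over groups, Car2 was at 6334 ± 794 after 5 days (SD, n = 12) and 6217 ± 577 after 3 days (SD, n = 8), a log2 difference of -0.001 (adjusted p = 0.99). The fitted difference weights the sexes equally, whereas the means hold 4 female and 8 male arrays after 5 days and 4 of each sex after 3 days. Car4 103046_at was at 1881 ± 356 after 5 days and 1718 ± 421 after 3 days, a difference of 0.09 (adjusted p = 0.48). Car14 was at 1683 ± 449.9 after 5 days and 1692 ± 464 after 3 days, a difference of -0.03 (adjusted p = 0.81). None of these 3 differences was larger than the spread between arrays. Of the 4 probe sets 0 were called for days, although 40.9% of all probe sets were. Each block of arrays held 1 duration, so blocks and days cannot be told apart except through the spread between blocks. With the block as a random term 1056 probe sets were called in place of 3554, and without arrays 05 to 08 the number was 26.

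The second Car4 probe set was the nearest to a difference between durations. It averaged 535 ± 137 after 5 days (SD, n = 12) and 608 ± 75.2 after 3 days (SD, n = 8), a log2 difference of -0.23 (adjusted p = 0.10). Array 20, a male pool at 5 days, decided on which side of the threshold this difference lay. Without that array the difference was -0.28 with an adjusted p of 0.014. With the block as a random term the adjusted p was 0.36.

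Within the low phosphate groups Car14 was at 1506 ± 115 after 5 days (SD, n = 3) and 1293 ± 202 after 3 days (SD, n = 2) in Hyp kidneys. Within the control groups of Hyp mice it was at 1164 ± 346 after 5 days and 1260.1 ± 56.4 after 3 days. In normal kidneys on low phosphate diet it was at 2228 ± 200.3 after 5 days and 2198 ± 128 after 3 days, and on control diet at 1834 ± 90.9 after 5 days and 2016 ± 183 after 3 days. The means on low phosphate and control diet thus lay further apart after 5 days than after 3 days in both genotypes. The test of that change, the diet by days term, gave 0.26 for Car14 (95% interval -0.14 to 0.66, adjusted p = 1). The genotype by days term was 0.09 (-0.30 to 0.49, adjusted p = 0.96). The share of probe sets called was 0% for both terms (limma, 0 of 8695 each), with 288 for diet by days and 458 for genotype by days at an unadjusted p under 0.05.

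The diet by days term was -0.03 for Car2 (95% interval -0.34 to 0.29), -0.06 for Car4 103046_at (-0.47 to 0.35) and 0.27 for Car4 161818_f_at (-0.20 to 0.74). The genotype by days term was 0.08 for Car2 (-0.24 to 0.40), 0.04 for Car4 103046_at (-0.37 to 0.45) and 0.03 for Car4 161818_f_at (-0.44 to 0.50). With 2 or 3 arrays per group and duration the intervals were wide, and widest for 161818_f_at.

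**Figure D4:**
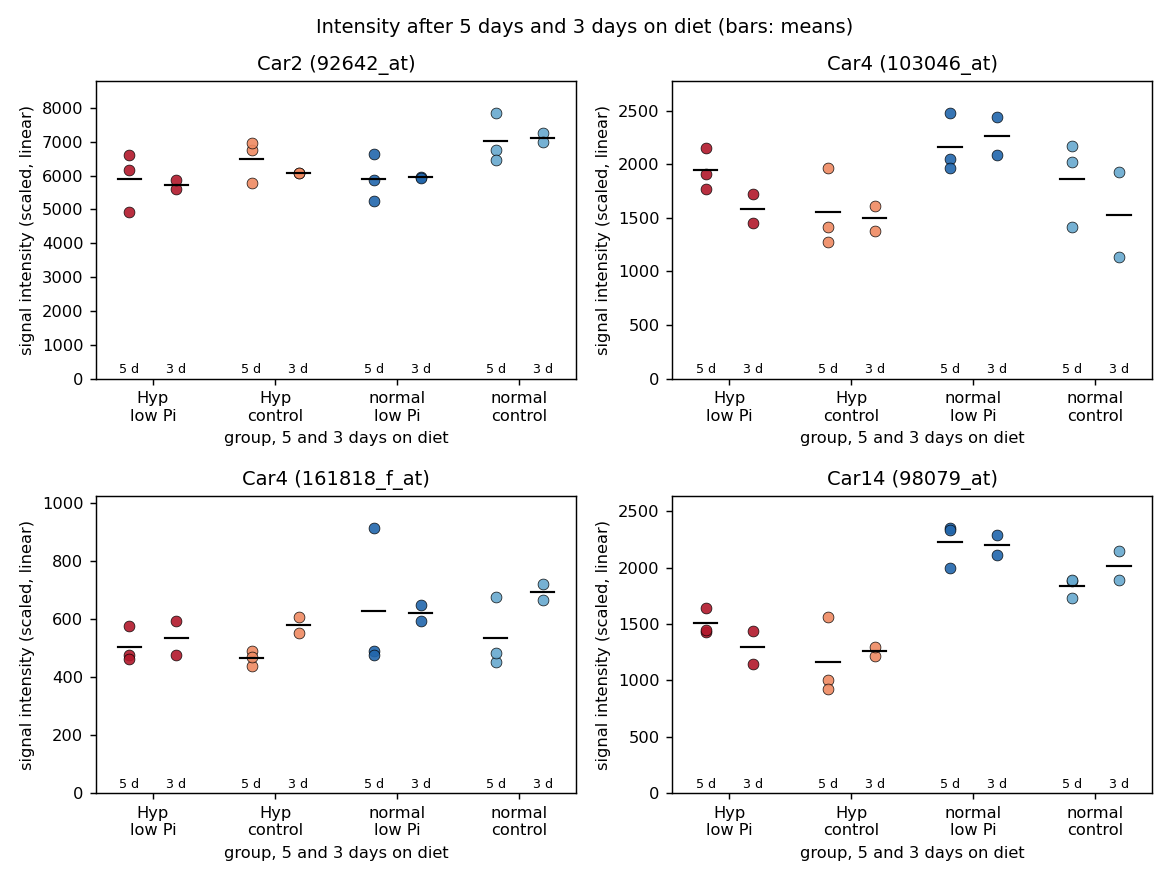
Signal intensity (linear, scaled by the authors) of each probe set by group, with 5 days on diet left of 3 days; points are arrays (n = 3 at 5 days, n = 2 at 3 days) and bars are means. Car14 in Hyp kidneys stays below Car14 in normal kidneys at both durations, for example 1506 against 2228 on low phosphate diet after 5 days.

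Sex was balanced over the groups and gave 1 call among the 4 probe sets, where 16.6% of all probe sets were called. Car4 103046_at ran from 1130.3 to 2089.4 with a median of 1431.5 on the 8 female arrays, against 1409.5 to 2478.1 with a median of 1993 on the 12 male arrays. The ranges overlapped widely. The means were 1559.7 ± 343 in females (SD, n = 8) and 1987 ± 311 in males (SD, n = 12), a log2 difference, female minus male, of -0.34 (SE 0.092, adjusted p = 0.018). The call was lost without array 15 (-0.28, adjusted p = 0.055), with the block as a random term (-0.35, adjusted p = 0.23) and without arrays 05 to 08 (-0.36, adjusted p = 0.60). For the other 3 probe sets the differences were -0.07 for Car2, -0.13 for Car4 161818_f_at and -0.08 for Car14, with adjusted p-values of 0.56, 0.47 and 0.59.

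Of the other carbonic anhydrases, 6 of 13 listed genes were measured and 4 tested, and 0 were called in the averaged genotype and diet comparisons (limma). At an unadjusted p under 0.05, 0 passed for genotype and 1 for diet, against 15.0% and 9.75% of all probe sets tested. The median diet difference of the 4 was 0.12, against 0.01 over all probe sets tested, and the median genotype difference -0.10, against 0.02. Car12, another membrane-spanning enzyme of the kidney tubule, averaged 2098 ± 417 on low phosphate diet and 1766 ± 196 on control diet in Hyp kidneys. In normal kidneys Car12 averaged 2046 ± 469 on low phosphate diet and 1957 ± 351 on control diet. Its genotype difference averaged over diets was -0.04 (adjusted p = 0.88) and its diet difference 0.14 (adjusted p = 0.73). Car3, the cytosolic form of muscle and fat, had a diet difference of 0.57 (adjusted p = 0.30). Car8, a related protein without catalytic activity, and Car5a, a mitochondrial form, were not called either, and Car1 and Car6 were below the filter on dim signal.

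Over days, Car3 and Car8 were higher after 5 days than after 3 days, by 1.92 (adjusted p = 2.5e-05) and 0.28 (adjusted p = 0.036) on the log2 scale (limma). In this comparison 20.7% of all probe sets tested were called higher and 20.2% lower. Its calls depend on the blocks of arrays, as given above. Of 6 listed adipocyte markers 4 were measured, and 2 were called, Car3 itself and Adipoq, which was higher by 1.58 (adjusted p = 9.3e-05). The other two, Retn and Fabp4, had differences of 0.35 and -0.13 (adjusted p = 0.36 and 0.41). The summed intensity of these 4, Car3 included, ran from 1007.5 to 3959.5 with a median of 2792 on the 12 arrays after 5 days. On the 8 arrays after 3 days it ran from 635 to 1553 with a median of 988.8. Since Car3 is part of this sum, the sum is no separate measure beside Car3. The part of fat tissue in the Car3 difference was not tested.

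In a list of transporters that carry the bicarbonate and protons made by these enzymes, 9 of 20 listed names were measured and 7 tested. This transporter list also holds the scaffold Slc9a3r1, which does not carry them itself, and names it a second time as Nherf1. Averaged over diets, 2 were lower and 1 was higher in Hyp mice, against 0.506% lower and 0.771% higher among all probe sets tested. The median log2 difference of the 7 was -0.03, against 0.02 over all probe sets tested. Slc4a4, the sodium bicarbonate cotransporter through which proximal tubule cells return bicarbonate to the blood, averaged 2689 ± 851 in Hyp kidneys and 3975 ± 1187 in normal kidneys on low phosphate diet. On control diet Slc4a4 averaged 3155 ± 707 in Hyp kidneys and 3857 ± 1308 in normal kidneys (SD, n = 5 each), and its averaged difference was -0.41 (adjusted p = 0.025).

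Slc26a1, a basolateral exchanger of sulfate for bicarbonate or oxalate, showed a genotype difference close in size to that of Car14. It averaged 468 ± 76.0 in Hyp kidneys and 806 ± 200 in normal kidneys on low phosphate diet, a difference of -0.72 (adjusted p = 0.0031). On control diet it averaged 578 ± 137 in Hyp kidneys and 829.8 ± 98.7 in normal kidneys, a difference of -0.51 (adjusted p = 0.065), and averaged over diets the difference was -0.62 (adjusted p = 0.00028). Slc4a1, the chloride bicarbonate exchanger of red cells and intercalated cells, was higher in Hyp mice by 0.35 averaged over diets (adjusted p = 0.043). Slc9a3r1, a scaffold of the brush border, and Slc9a8, a sodium proton exchanger, had genotype differences of -0.03 and -0.25 (adjusted p = 0.89 and 0.47). In the averaged diet comparison 0 of the 7 were called (limma). An unadjusted p under 0.05 was reached by 4, against 9.75% of all probe sets tested.

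Subunits of proton pumps, which secrete acid into the tubule, were measured and tested for 15 of 23 listed genes. Atp6v1b1 and Atp6v0a4, which are also on the list of intercalated cell markers, were among those not measured. Most belong to the vacuolar pump, and Atp4a to a separate pump that exchanges protons for potassium. Of the 15, 0 were called in the averaged genotype or diet comparison (limma). At an unadjusted p under 0.05, 3 passed in each, against 15.0% of all probe sets tested for genotype and 9.75% for diet. The median log2 difference of diet was -0.05, with 13 of 15 negative, against 0.01 over all probe sets tested. For genotype it was 0.05, against 0.02. Atp6v1a, the catalytic subunit of the vacuolar pump, had a diet difference of -0.13 (adjusted p = 0.65) and a genotype difference of 0.19 (adjusted p = 0.30). For Atp6v1b2 and Atp6v1g1 the diet differences were -0.02 and -0.21, and the genotype differences -0.16 and -0.09.

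Genes of ammonia production, by which the proximal tubule makes new bicarbonate, were called for diet but not for genotype. Of 11 listed genes 9 were measured and tested, and averaged over genotypes 2 fell on the low phosphate diet and 0 rose, against 0.299% lower and 0.173% higher among all probe sets tested. The median was -0.03 over the 9, against 0.01 over all. The 9 include Glul, the glutamine synthetase, which uses ammonia and does not produce it. Pck1, the cytosolic phosphoenolpyruvate carboxykinase, had a log2 difference of -0.83 (limma, adjusted p = 0.0015). It was -0.98 in Hyp mice (adjusted p = 0.015) and -0.67 in normal mice (adjusted p = 0.12). Glud1, the mitochondrial glutamate dehydrogenase that releases ammonia, averaged 2141 ± 551 on low phosphate diet and 2797 ± 794 on control diet in Hyp kidneys. In normal kidneys Glud1 averaged 2146 ± 413 on low phosphate diet and 3332 ± 565 on control diet. Its difference averaged over genotypes was -0.50 (limma, adjusted p = 0.0044). It was -0.63 in normal mice (adjusted p = 0.02) and -0.37 in Hyp mice (adjusted p = 0.67). The genotype by diet terms were -0.31 for Pck1 and 0.26 for Glud1, and neither was called. The genotype differences were -0.22 for Pck1 and -0.16 for Glud1 (adjusted p = 0.37 and 0.35). Slc3a2, the heavy chain of amino acid exchangers, and Ogdh, an enzyme of the citric acid cycle, had diet differences of 0.12 and -0.11 (adjusted p = 0.73 and 0.60).

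Several genes of these lists were also called for days on diet, a comparison whose calls depend on the blocks of arrays as given above and in which 20.7% of all probe sets were called higher and 20.2% lower. Of the 7 genes of the transporter list, 2 were lower after 5 days than after 3 days. They were Slc4a4 (log2 difference -0.47) and the scaffold Slc9a3r1 (-0.35). Of the 15 pump subunits, Atp6v1a was higher (0.27), and Atp6v0b (-0.72), Atp6v0e (-0.29) and Atp4a (-0.27) were lower. Of the 9 genes of the ammonia list 2 were higher, Glul (0.76), whose enzyme uses ammonia, and Mdh1 (0.34). The 5 lower ones were Glud1 (-0.48), Pck1 (-0.57), Slc7a8 (-0.65), Slc3a2 (-0.37) and Slc25a10 (-1.63). Between the sexes, Slc9a3r1 (-0.34), Slc26a1 (-0.35), Atp6v0b (-0.61), Atp6v0d1 (-0.30), Atp6v0e (-0.37), Ogdh (-0.22) and Slc25a10 (-1.01) were lower in females than in males, and 0 genes of the 4 lists were higher. Among all probe sets tested 8.67% were called lower and 7.95% higher. The number of calls for sex also depends on the blocks of arrays, each of which held a single sex, as given in the closing section.

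**Figure D5:**
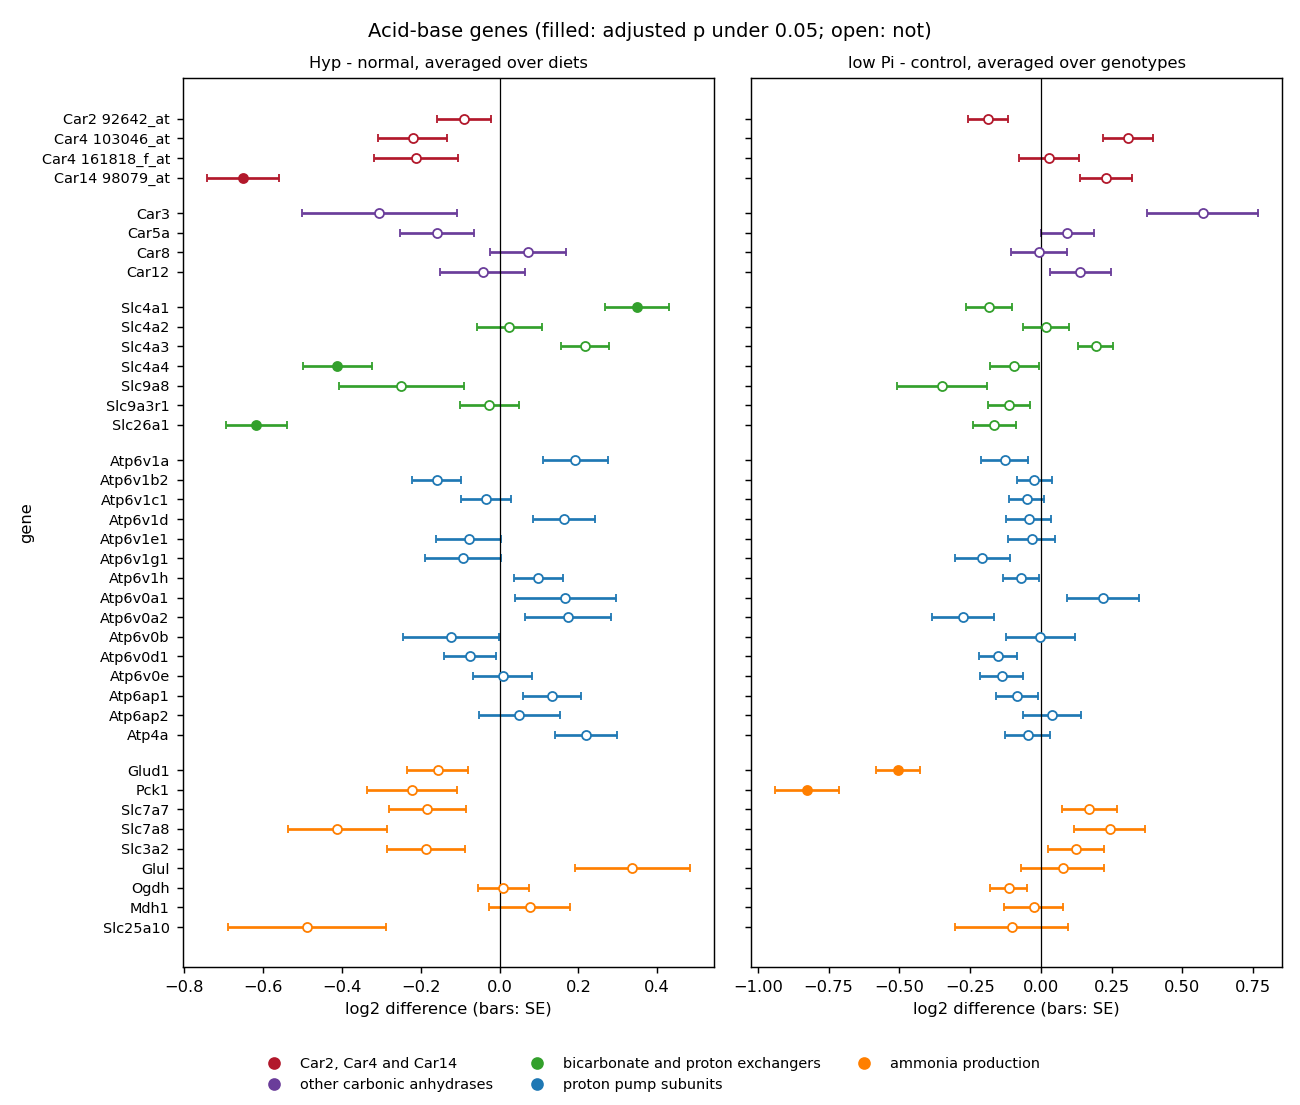
Log2 difference with its SE for the carbonic anhydrase probe sets and the tested genes of 4 acid-base lists, Hyp minus normal averaged over diets (left) and low phosphate (low Pi) minus control averaged over genotypes (right); filled points have an adjusted p under 0.05. On the left the filled points are Car14 (-0.65), Slc4a1 (0.35), Slc4a4 (-0.41) and Slc26a1 (-0.62), and on the right Glud1 (-0.50) and Pck1 (-0.83).

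The genes whose intensities followed each probe set most closely were ranked by Pearson correlation over the 20 arrays after the means of sex and days were removed. The arrays share groups and scaling, so these correlations describe likeness of pattern only. For Car14 they were Alpl, the tissue-nonspecific alkaline phosphatase (r = 0.89), Ccnd1, the cell cycle regulator cyclin D1 (r = 0.88), and Lars, a leucyl-tRNA synthetase (r = 0.88). Alpl averaged 2193 ± 654 in Hyp kidneys and 3555 ± 715 in normal kidneys on low phosphate diet (SD, n = 5 each). On control diet Alpl averaged 1993 ± 737 in Hyp kidneys and 2629 ± 591 in normal kidneys. Averaged over diets, the genotype difference was -0.58 for Alpl (adjusted p = 0.023), -0.43 for Ccnd1 (adjusted p = 0.0055) and -0.15 for Lars (adjusted p = 0.22).

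For Car4 103046_at the nearest genes were Spn, a leukocyte surface sialoprotein (r = 0.81), Ankrd33b (r = 0.76) and Ifrd2 (r = 0.74). Ankrd33b averaged 365 ± 38.1 on low phosphate diet and 372 ± 48.9 on control diet in Hyp kidneys, and 688 ± 42.0 on low phosphate diet and 451 ± 52.5 on control diet in normal kidneys. It was called for diet in normal mice, with a log2 difference of 0.58 (adjusted p = 0.045), and for genotype averaged over diets, with -0.55 (adjusted p = 0.00079), whereas Spn and Ifrd2 were called for neither diet nor genotype in the averaged comparisons. For Car4 161818_f_at the nearest genes were different, namely Ndufaf1, an assembly factor of respiratory complex I (r = 0.86), Hgd, an enzyme of tyrosine breakdown (r = 0.84), and H2-Ke6 (r = 0.84). For Car2 they were Gng11, a G protein gamma subunit (r = 0.92), Mrpl51, a mitochondrial ribosomal protein (r = 0.87), and Serpinh1, a collagen chaperone (r = 0.85). Of these last 3, 0 passed the test for diet averaged over genotypes.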

How the data were processed

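The deposited table held signal intensity on a linear scale for 12488 probe sets on 20 arrays, which the authors had scaled to a common mean, as tested on the file. The software and background correction are not given in the sources used here. Of 12422 probe sets that were not controls, 10833 name 1 gene in the platform annotation, 396 several and 1193 none. An offset of 38 was added before log2, so differences understate the fold change of dim probe sets, and probe sets below the 30th percentile of mean intensity (79.4) were left out. The remaining 8695 were fitted with limma 3.58.1 in R 4.3.3, with group and the combination of sex and days as terms (13 residual degrees of freedom, or 11 with terms by days), and p-values were adjusted by Benjamini-Hochberg at 0.05 within each of 11 comparisons. The steps were tested on simulated data. No pair of arrays was identical, 0 columns were left unused, and intensities carry no depth. Alternatives were an offset of 1, quantile normalization, no filter, the block of title numbers as a fixed term (random for days and sex, which vary between blocks), no arrays 05 to 08, each array left out, and each sex or duration alone. Named genes were the 4 carbonic anhydrase probe sets, list genes that passed the threshold, the 3 brightest of each acid-base list and the 3 most alike to each probe set. Each list or marker gene was represented by its brightest probe set that names 1 gene, and other probe sets of that gene were not used. The members and lists were chosen with earlier results of these data known.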

Additional observations from a re-analysis of the deposited data

How the results depend on the processing

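The Car14 difference between genotypes averaged over diets kept its direction and its side of the threshold under every alternative run for it. Groups share no replicate number, so arrays were paired through the blocks of title numbers, as a fixed term for genotype and diet (the averaged Car14 difference was then -0.62) and as a random term, with a correlation of 0.30, for days and sex. Among the 4 probe sets the block changed no call but that of sex. The number of arrays and the arrays 05 to 08 limit the single comparisons, and the cause of each change below was not tested. Where fewer arrays or more probe sets enter, the construction itself changes the adjusted p.

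Without arrays 05 to 08, the number of probe sets called was 6 in place of 13 for diet in Hyp mice, 5 in place of 16 for diet in normal mice, 19 in place of 31 for genotype on low phosphate diet and 3 in place of 22 for genotype on control diet. It was 1 in place of 4 for genotype by diet, 20 in place of 41 for diet averaged, 61 in place of 111 for genotype averaged, 26 in place of 3554 for days and 19 in place of 1445 for sex. With the block as a fixed term it was 58 for diet in normal mice and 97 for diet averaged, and with the block as a random term 1056 for days and 97 for sex. Without the intensity filter it was 10 for diet in normal mice. With 1 array left out it ran from 6 to 15 for diet in Hyp mice, 5 to 19 for diet in normal mice, 17 to 36 for genotype on low phosphate diet, 7 to 26 for genotype on control diet, 25 to 45 for diet averaged and 66 to 100 for genotype averaged.

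The Car14 genotype difference on low phosphate diet lost its call with an offset of 1 (-0.65, adjusted p = 0.053), without the filter (-0.63, 0.06), without arrays 05 to 08 (-0.67, 0.13), at 5 days alone (-0.55, 0.6), at 3 days alone (-0.76, 0.31), in females alone (-0.66, 0.9) and in males alone (-0.62, 0.56). On control diet it lost its call without the filter (-0.67, 0.053), without arrays 05 to 08 (-0.61, 0.26), at 5 days alone (-0.68, 0.7), at 3 days alone (-0.66, 0.58), in females alone (-0.80, 0.9) and in males alone (-0.58, 0.71). With 1 array left out the differences ran from -0.68 to -0.54 on low phosphate diet and from -0.77 to -0.57 on control diet. The sex difference of Car4 103046_at lost its call with the block (-0.35) and without arrays 05 to 08 (-0.36), and ran from -0.38 to -0.28 with 1 array left out.

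Several differences near 0 changed sign. For Car4 161818_f_at the diet difference in Hyp mice was -0.0119 with quantile normalization, -3.83e-05 without arrays 05 to 08, -0.12 at 3 days alone, -0.033 in males alone and -0.028 to 0.092 with 1 array left out. In normal mice it was -0.16 at 3 days alone, -0.089 in females alone and -0.11 to 0.12 with 1 array left out. Car2 was 0.046 for genotype on low phosphate diet and 0.039 for days with quantile normalization. Car4 103046_at was 0.012 at 3 days alone and 0.069 in females alone for genotype on control diet. Without arrays 05 to 08, Car14 was -0.061 for genotype by diet and 0.013 for days, Car2 0.066 for days and 0.089 for diet by days, and Car4 161818_f_at -0.034 for genotype by days. With 1 array left out, Car4 161818_f_at ran from -0.11 to 0.13 for genotype by diet, -0.049 to 0.068 for diet averaged and -0.060 to 0.16 for genotype by days. Its difference for days stayed negative, at -0.28 to -0.20, and was called without array 20. Likewise Car4 103046_at ran from -0.15 to 0.10 for diet by days and -0.049 to 0.20 for genotype by days. Car2 ran from -0.061 to 0.027 for genotype on low phosphate diet, -0.047 to 0.031 for days and -0.078 to 0.035 for diet by days. Car14 ran from -0.068 to 0.13 for genotype by diet, -0.089 to 0.0060 for days and -0.0036 to 0.18 for genotype by days.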
